A study of Orbilia oligospora with 12 samples.

Results

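The time response of the strain labelled ΔAorlmA of Arthrobotrys (Orbilia) oligospora was described from 6 of the 12 RNA-seq libraries of a series. The 6 were chosen by their labels, genotype ΔAorlmA at 0 h and at 48 h, with 3 libraries at each time. The other 6 libraries came from the wild type at the same times and serve here as the comparison. All 12 carry the same treatment label, a nematode extract that induces traps, also at 0 h, and all came from hyphae of plates of potato dextrose agar kept at 28 °C for 5 days. The replicates are described as biological, and no source used here says whether they came from separate cultures, so p-values measure the spread between these libraries. How many transformants stand behind the labelled strain is not stated in these sources.

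A. oligospora is a soil fungus that lives on dead plant matter and, when nematodes or their products are present, turns hyphae into sticky three-dimensional nets that catch them. The captured animal is pierced and digested, with secreted proteases opening its cuticle. AorlmA is named for Rlm1, a MADS-box transcription factor that in budding yeast acts below the MAP kinase of the cell wall integrity pathway and switches on wall genes.

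A candidate for the gene behind the label was looked at first. AOL_s00078g125, annotated as an SMP1/RLM1-type MADS-box factor, had 72.2, 116 and 164 TPM in the 3 libraries at 0 h and 109, 96.9 and 87.3 TPM at 48 h. The transcript of this candidate was thus present in every library labelled ΔAorlmA, and the times overlapped (log2 change -0.19, exact two-sided permutation p = 0.6, where 0.1 is the smallest p that 3 against 3 allows). The means were 117 TPM at 0 h and 97.6 TPM at 48 h. In the wild type they were lower, at 36.2 and 35.1 TPM, a difference in level that was not tested here. TPM is a transcript's share of all transcripts per length, scaled to the same total in every library, so reads from any part of the coding sequence count. Whether the deletion was of this gene, and whether the reads come from a part that it left, cannot be told from a value per gene. The other MADS-box genes, AOL_s00088g15 and AOL_s00112g128, changed by -0.56 and 0.34 on the log2 scale (exact p = 0.1 for each), and neither was called. AOL_s00112g128 is annotated as MCM1 by Swiss-Prot and, like AOL_s00078g125, as RLM1 by KEGG orthology. The growth protocol names another deletion, ΔAosnf1. The gene annotated as SNF1, the kinase that lets yeast use poor carbon sources, had 38.3, 53.9 and 36.98 TPM at 0 h against 23.6, 41.0 and 41.8 TPM at 48 h, also present throughout (AOL_s00173g192, log2 change -0.30, exact p = 0.6). In the wild type its means were 106 TPM at 0 h and 39.8 TPM at 48 h. The libraries are therefore called the libraries labelled ΔAorlmA, and the 48 h changes below are changes within them.

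Depth was even, with 52.5 to 61.1 M clean reads per library labelled ΔAorlmA. The libraries themselves were less alike than those of the wild type. The median SD of a gene within a group, on the log2(TPM + 1) scale, was 0.48 at 0 h and 0.39 at 48 h, against 0.27 and 0.24 in the wild type. The first library at 0 h stood apart: it correlated at 0.924 with the third library at 48 h and on average at 0.903 with its own group. The first library at 48 h correlated at 0.944 with a wild-type 48 h library and on average at 0.932 with its own group. On the first component of all 12 libraries the 0 h libraries lay at -4.6, -64.3 and -44.9 and the 48 h libraries at 42.1, 30.9 and 30.4, so that the times did not overlap.

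**Figure D1:**
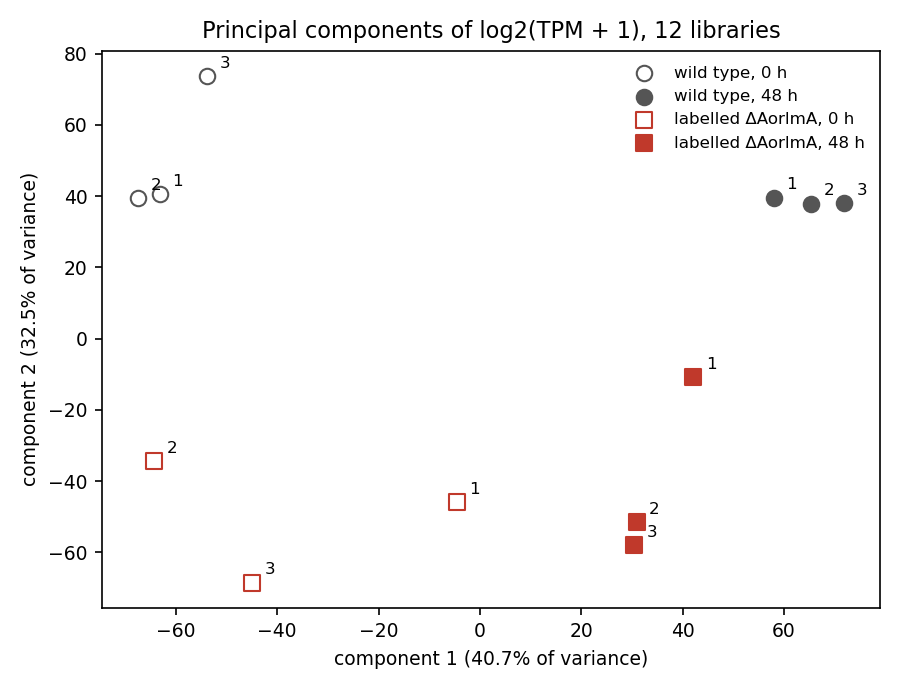
Principal components of log2(TPM + 1) over the 12 libraries, with component 1 (40.7% of the variance) on the x axis and component 2 (32.5%) on the y axis. Each point is a library, numbered by replicate. The first 0 h library of the labelled strain lies at -4.6 on component 1, between the other 0 h libraries and the 48 h ones.

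Over 48 h, 2009 of 9355 genes tested changed in the libraries labelled ΔAorlmA (21.5%), 1212 of them higher (13.0%) and 797 lower (8.52%). A gene is called here where limma's adjusted p (Benjamini-Hochberg over all genes tested) was under 0.05 in a fit of log2(TPM + 1) over all 12 libraries, which share 1 estimate of the spread. Of these, 1692 also changed at least 2-fold (18.1%), 997 higher (10.7%) and 695 lower (7.43%), and in 1847 of the 2009 all 3 libraries of one time lay above all 3 of the other. Groups that did not overlap in this way were seen in 18.4% of all genes in the direction of 48 h and in 13.2% in the direction of 0 h. With the 6 libraries alone, whose spread is wider, 438 genes were called (4.68%), 193 higher (2.06%) and 245 lower (2.62%), and 428 of them were among the 2009. Each gene described below was called in the 12-library fit, unless stated otherwise, and the text marks those that did not pass in the 6-library fit. Counts of called list members stand beside the shares of all genes, 13.0% higher and 8.52% lower, and a list near these shares shows no particular response. Leaving out the second 0 h library left 720 calls, leaving out the first 0 h library gave 3442, leaving out the third 0 h library gave 1215 and leaving out the second 48 h library gave 1055. The median change of all genes was 0.14 on the log2 scale, and scaling the libraries by median ratios moved it to 0.00 and turned the balance of the calls from 60.3% higher to 45.9% higher.

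**Figure D2:**
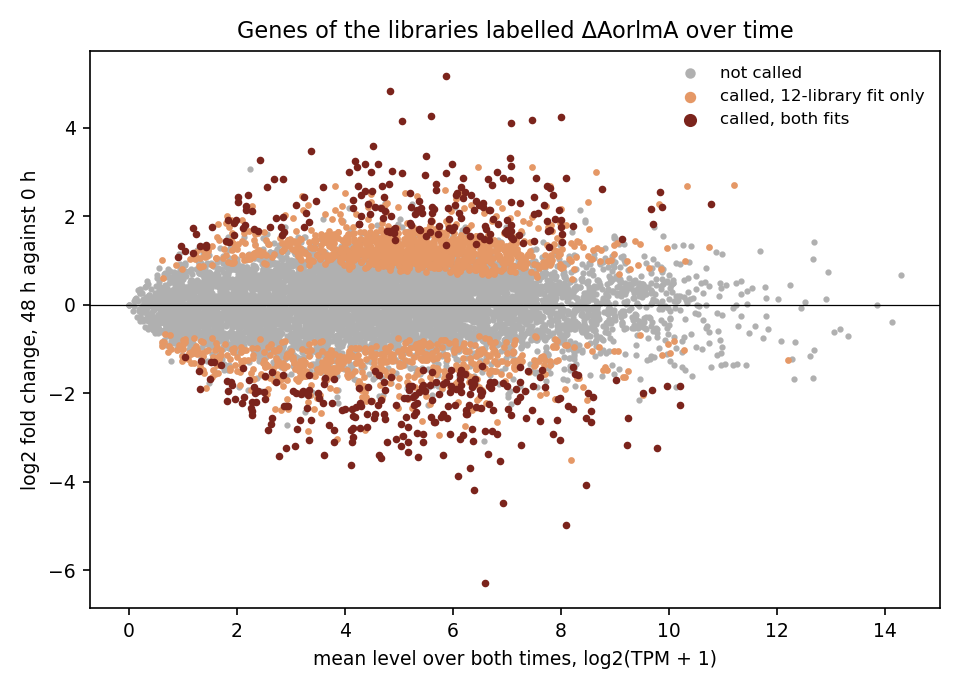
Log2 fold change of each gene tested, 48 h against 0 h in the libraries labelled ΔAorlmA (y axis), against its mean level as log2(TPM + 1) (x axis). Dark points are the 428 genes called in both fits, orange points the other genes called in the fit of 12 libraries, and grey points genes not called. Genes called in both fits lie away from 0 at every level.

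Carriers of amino acids and peptides were among the largest rises. Of 37 tested transporters for amino acids and peptides, 8 rose (21.6%) and 1 fell, with a median of 0.41, and 6 of the 8 rises passed in the 6-library fit as well. AOL_s00170g65, a general amino acid permease of the GAP1 type, had 9.98, 11.6 and 33.3 TPM at 0 h against 108, 1092 and 270.2 TPM at 48 h (log2 change 4.25 ± 0.74 SE, adjusted p = 0.00368, limma). Every 48 h library lay above every 0 h library, which the choice of the largest rises required, and the second 48 h library lay far above the first. AOL_s00097g310, a PTR2-type carrier of di- and tripeptides, went from 5.54, 0.90 and 2.47 TPM to 176, 20.8 and 77.9 TPM (4.26 ± 0.70, adjusted p = 0.00295). AOL_s00007g98, a high-affinity methionine permease of the MUP1 type, rose more evenly, from 28.4, 15.7 and 15.3 TPM to 112, 103 and 120.02 TPM (2.49 ± 0.27, adjusted p = 0.000389).

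The oligopeptide transporter (OPT) family, whose members carry small peptides or metal chelates, was looked at after its values were seen. Of 5 tested genes with its domain 3 rose and 0 fell, and the 5 changes ranged from 0.16 to 2.54. AOL_s00054g285 was the most abundant, at 428, 204 and 209 TPM at 0 h against 1712, 1435 and 1488 TPM at 48 h (2.54 ± 0.30, adjusted p = 0.000659). AOL_s00188g351, of the fission yeast isp4 type, went from 93.3, 66.6 and 26.2 TPM to 341, 310.2 and 252 TPM (2.43 ± 0.42, adjusted p = 0.00343). AOL_s00169g123 had 12.7 ± 8.04 TPM at 0 h against 68.4 ± 39.3 TPM at 48 h (mean ± SD, n = 3; log2 change 2.35). The groups of all 3 stayed apart, and all 3 passed in the 6-library fit. The wild type had no called change in these OPT genes (0.26, -0.06 and 0.09), and the difference between the strains was called for the first 2 (2.29, adjusted p = 0.021, and 2.49, adjusted p = 0.037). MUP1 also differed between the strains (1.86, adjusted p = 0.0233), whereas for GAP1 and PTR2 the difference did not pass (adjusted p = 0.157 and 0.206). The transporter that fell was AOL_s00173g372, an AGP2-type permease, from 661, 448 and 168 TPM to 58.0, 42.1 and 86.6 TPM (-2.61 ± 0.77, adjusted p = 0.0319); it did not pass when the first or second library of either time was left out.

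Enzymes that break down tyrosine rose beside the carriers. They were noticed because AOL_s00097g551 and AOL_s00097g556 were among the 10 largest rises, and the other members were added after their values were seen. In this pathway tyrosine is turned into 4-hydroxyphenylpyruvate, then homogentisate, maleylacetoacetate and fumarylacetoacetate, and ends as fumarate and acetoacetate. The dioxygenase that makes homogentisate (AOL_s00097g549) had 14.0, 13.6 and 9.02 TPM at 0 h against 72.9, 48.7 and 59.6 TPM at 48 h (2.22 ± 0.44, adjusted p = 0.00632). Homogentisate 1,2-dioxygenase (AOL_s00097g551) went from 12.9, 10.6 and 8.93 TPM to 182, 81.0 and 78.9 TPM (3.18 ± 0.43, adjusted p = 0.00131). Maleylacetoacetate isomerase (AOL_s00097g553) went from 12.2, 27.6 and 29.0 TPM to 88.5, 47.9 and 53.7 TPM (1.47 ± 0.35, adjusted p = 0.0152). Fumarylacetoacetase (AOL_s00097g556), the last step, went from 33.7, 12.9 and 21.4 TPM to 395, 136 and 199 TPM (3.33 ± 0.46, adjusted p = 0.00141). In all 4 genes, whose locus tags lie close together, every 48 h library was above every 0 h library. For AOL_s00097g551 and AOL_s00097g556 the choice of the largest rises required this. All but the isomerase passed in the 6-library fit (adjusted p = 0.0864 for the isomerase). Homogentisate dioxygenase rose by 1.95 and fumarylacetoacetase by 3.18 in the wild type too. For the first dioxygenase the wild type had -0.51, and the strains differed (2.73, adjusted p = 0.0324).

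A gene that may act at the start of the pathway went the other way, and whether it acts on tyrosine here was not tested. An aromatic aminotransferase of the ARO8 type (AOL_s00215g295), which in yeast works on aromatic amino acids, fell from 67.2, 57.7 and 21.3 TPM to 6.41, 2.30 and 4.71 TPM (-3.11 ± 0.46, adjusted p = 0.00214). A regulator annotated as ARO80, in yeast an activator of genes for the use of aromatic amino acids, rose from 22.0 ± 12.5 to 64.7 ± 15.0 TPM (AOL_s00215g441, 1.62, adjusted p = 0.00893, and 0.0673 with the 6 libraries alone). A tyrosinase, a copper enzyme that turns tyrosine towards melanin, fell from 82.9, 76.2 and 171 TPM to 19.97, 30.3 and 38.6 TPM (AOL_s00083g37, -1.81 ± 0.42, adjusted p = 0.0136). It rose by 1.29 in the wild type, and the strains differed by -3.09 (adjusted p = 0.022). These 3 genes were also chosen after their values were seen.

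**Figure D3:**
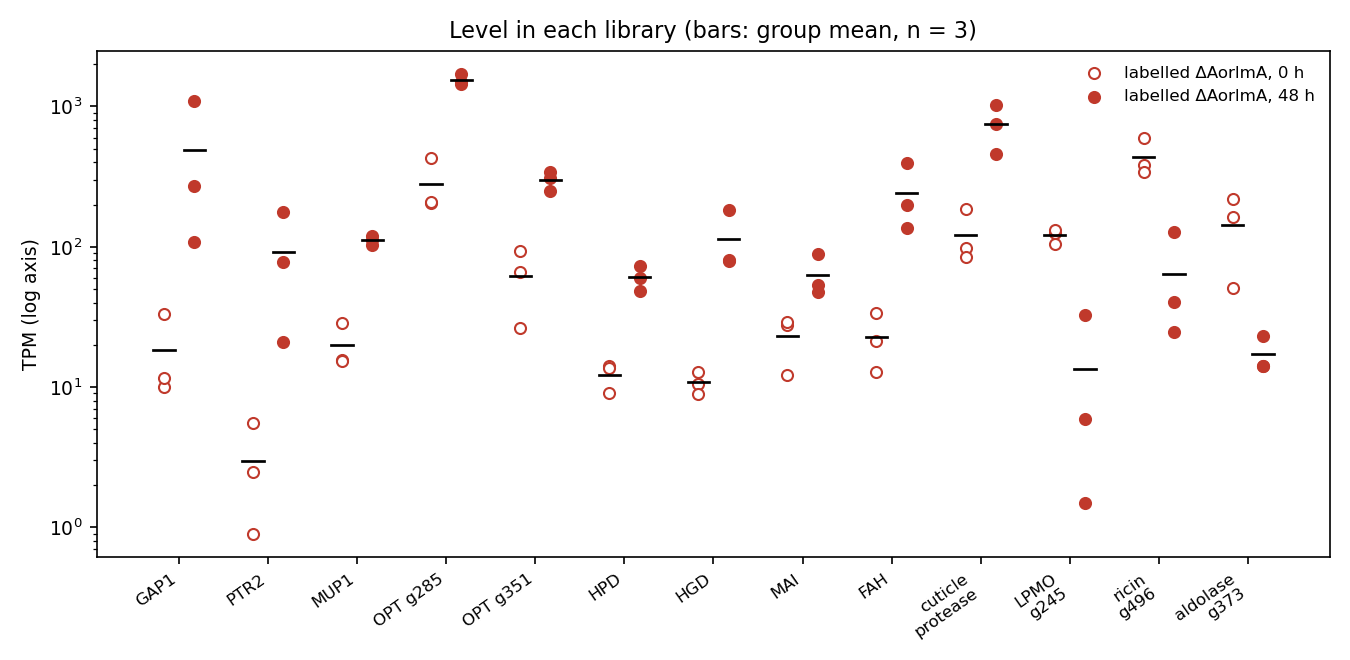
TPM (log axis) of 13 genes in each library labelled ΔAorlmA at 0 h (open) and 48 h (filled), with group means as bars (n = 3). From the left are amino acid and peptide transporters, tyrosine breakdown (HPD, HGD, MAI and FAH for its successive enzymes), the cuticle-degrading protease AOL_s00076g4, and 3 genes that fell. In each gene the open and filled points do not overlap, which was required of those named as the largest rises or falls.

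Central carbon metabolism moved in part. In the list of the TCA and glyoxylate cycles, 10 of 53 members rose and 6 fell, with a median of -0.14, and 6 rises and 1 fall passed in the 6-library fit; without the second 0 h library 7 rises and 1 fall were called. Acetyl-CoA synthetase (AOL_s00081g301), which activates acetate, rose from 39.2, 26.8 and 24.2 TPM to 128, 184 and 98.0 TPM (2.13 ± 0.36, adjusted p = 0.00325). The wild type had a change of -0.23, and the strains differed (2.37, adjusted p = 0.0271). Acetyl-CoA acetyltransferase (AOL_s00176g25), which joins or splits acetoacetyl-CoA, rose from 319, 233 and 334 TPM to 1397, 1473 and 1119 TPM (2.17 ± 0.30, adjusted p = 0.00146). Isocitrate lyase, the entry enzyme of the glyoxylate cycle, had 51.4, 43.8 and 46.4 TPM at 0 h against 117, 129 and 124 TPM at 48 h (AOL_s00075g130, 1.36 ± 0.39, adjusted p = 0.0297); it passed in the 6-library fit but not in the fits that left out the second or the third 0 h library or any 48 h library. A subunit of isocitrate dehydrogenase rose from 298 ± 77.1 to 822 ± 82.5 TPM (AOL_s00109g30, 1.49), and the iron-sulfur subunit of succinate dehydrogenase from 141 ± 36.7 to 376 ± 34.1 TPM (AOL_s00054g737, 1.43). Formate dehydrogenase fell, from 26.1 ± 18.6 to 3.83 ± 1.91 TPM (AOL_s00215g530, -2.36).

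Of 38 glycolysis genes 3 rose and 6 fell, with a median of -0.48. The falls rest on the 12-library fit: 1 passed with the 6 libraries alone and 0 without the second 0 h library. An aldolase, which splits fructose bisphosphate, fell from 217, 163 and 50.5 TPM to 14.1, 14.0 and 23.1 TPM (AOL_s00173g373, -2.80 ± 0.68, adjusted p = 0.0153, and 0.0637 without the second 0 h library). A second aldolase (AOL_s00004g332, -1.05), pyruvate kinase (AOL_s00004g87, -1.36) and glucose-6-phosphate isomerase (AOL_s00079g9, -1.19) fell too, but not in the 6-library fit and not in 4 to 6 of the 12 fits that left out a library; the 3 were picked after their values were seen. In the wild type 24 of the 38 fell, with a median of -1.30, and the second aldolase fell by 2.99 there, more than in the labelled strain (difference 1.94, adjusted p = 0.0255). The summed level of the list in the labelled strain was 11166, 14418 and 13170 TPM at 0 h against 11066, 9948 and 9067 TPM at 48 h, with the first library of each time nearly equal.

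Peroxisomes, the organelles that burn fatty acids and from which the Woronin bodies that plug fungal septa arise, had 14 of 54 members higher (25.9%) and 3 lower, with a median of 0.54. The docking protein PEX14 rose from 192, 78.1 and 72.5 TPM to 405, 447 and 335 TPM (AOL_s00004g292, 1.92 ± 0.32, adjusted p = 0.00315). The membrane protein PXMP4 rose from 59.2, 19.9 and 38.7 TPM to 144, 229 and 125.28 TPM (AOL_s00078g269, 2.13 ± 0.35, adjusted p = 0.003). A carrier of the PMP47 type rose from 13.5 ± 2.22 to 44.5 ± 11.6 TPM (AOL_s00215g205, 1.63). These 3 passed in the 6-library fit and also rose in the wild type, by 2.08, 1.67 and 1.11. Mevalonate kinase, a sterol enzyme listed with peroxisomes, fell from 129 ± 11.1 to 37.1 ± 8.65 TPM (AOL_s00076g74, -1.79). Only 3 rises and 2 falls of the list passed in the 6-library fit, and without the second 0 h library 5 rises were called. HEX1, the Woronin body protein, was among the most abundant transcripts of annotated genes, at 7506, 4889 and 5242 TPM and then 12499.7, 7149 and 10084 TPM (AOL_s00112g56, 0.74, adjusted p = 0.0964, not called). In the wild type it rose by 2.15, and the difference between the strains did not pass (adjusted p = 0.0748). Fatty acid degradation had 5 of 18 members higher and 2 lower, and oxidative phosphorylation 4 of 74 higher and 2 lower; without the second 0 h library each had 2 higher and 0 lower.

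Secreted proteases are the tools with which the fungus opens a nematode. Among 26 subtilases, serine proteases of the subtilisin type, 3 rose and 3 fell, and without the second 0 h library 1 and 0 did. AOL_s00076g4, annotated as the cuticle-degrading serine protease of this species, had 97.4, 184 and 84.9 TPM at 0 h against 754, 1021 and 461 TPM at 48 h (2.61 ± 0.46, adjusted p = 0.00409, and 0.017 with the 6 libraries alone). The lowest 48 h library lay well above the highest 0 h library. In the wild type it had 403 and 472 TPM at the 2 times, and the difference between the strains did not pass (2.20, adjusted p = 0.0685). A subtilase of the Carlsberg type fell from 8.34 ± 1.75 to 2.24 ± 0.65 TPM (AOL_s00188g339, -1.53). Of the other peptidases 18 of 92 rose (19.6%) and 9 fell. The balance was not stable, with 3 rises and 5 falls in the 6-library fit and 8 rises and 3 falls without the second 0 h library. A trypsin-like protease rose from 4.01, 0.66 and 3.89 TPM to 42.0, 11.1 and 56.5 TPM (AOL_s00078g418, log2 change 3.17). The wild type had group means under 1 TPM at both times. This protease passed the filter on low values (1 TPM in at least 3 of the 12 libraries) only through the 48 h libraries where it is high. Its p-values are therefore not given. A leucine aminopeptidase rose from 251, 92.2 and 49.0 TPM to 986, 339 and 447 TPM (AOL_s00110g315, 2.33, adjusted p = 0.012, and 0.0596 with the 6 libraries alone), and a tripeptidyl aminopeptidase fell from 463 ± 95.6 to 94.1 ± 21.2 TPM (AOL_s00110g236, -2.29); both were picked after their values were seen.

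Of 85 genes listed for the digestion of plant walls, the work of life on dead matter, 14 fell (16.5%) and 6 rose. In the 6-library fit 4 fell and 0 rose, and without the second 0 h library 5 fell and 2 rose. The steepest fall of an annotated gene was a protein outside the list with a cellulose-binding domain, at 179, 264 and 119 TPM at 0 h against 11.2 TPM in the first 48 h library, and listed at 0 in the other 2 (AOL_s00004g323, -6.28 ± 0.84, adjusted p = 0.00129). A lytic polysaccharide monooxygenase, a copper enzyme that cuts cellulose, fell from 124.85, 133 and 105 TPM to 32.8, 1.48 and 5.90 TPM (AOL_s00169g245, -3.86 ± 0.88, adjusted p = 0.012). A second fell from 91.9, 65.5 and 49.8 TPM to 33.1, 3.46 and 7.63 TPM (AOL_s00210g85, -2.63, adjusted p = 0.0158, and 0.0578 with the 6 libraries alone or 0.0577 without the second 0 h library), and an endoglucanase from 8.22 ± 4.99 to 1.09 ± 0.35 TPM (AOL_s00110g293, -1.98). In the cellulose-binding protein and both monooxygenases the first 48 h library kept the highest level. Another monooxygenase, AOL_s00076g5, whose locus tag is next to that of the cuticle-degrading protease, rose from 1.48 ± 0.30 to 11.3 ± 10.1 TPM (2.03, adjusted p = 0.00844, and 0.0611 with the 6 libraries alone). The list holds aspartic proteases through a xylanase inhibitor domain, and 3 of the 6 rises and 1 of the 14 falls were such genes. Of the other 77 members 13 fell and 3 rose. The wild type had 42 of the 85 lower.

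Lectins, sugar-binding proteins thought to help traps adhere, held the most abundant transcript among annotated genes. AOL_s00043g240, with a ricin-type lectin domain, had 21167, 13852 and 12305 TPM at 0 h against 28149, 19873 and 26257 TPM at 48 h, with overlap (log2 change 0.68, adjusted p = 0.183, not called). Of 58 tested lectins and adhesive proteins 7 rose and 8 fell, with a median of -0.27; in the 6-library fit 1 rose and 4 fell, and without the second 0 h library 4 and 2. Another ricin-type lectin fell from 380.5, 597 and 340.1 TPM to 127, 24.7 and 40.6 TPM (AOL_s00215g496, -3.05 ± 0.48, adjusted p = 0.0027). AOL_s00078g374, also with this domain, fell from 75.4, 128 and 18.9 TPM to 7.04, 1.14 and 7.90 TPM (-3.44, adjusted p = 0.0193), but not without the second library of either time. A mannose-binding lectin fell from 47.2, 62.9 and 72.2 TPM to 20.7, 1.25 and 6.41 TPM (AOL_s00006g511, -3.09, adjusted p = 0.0295), a call lost in 4 of the 12 fits that left out a library; it was chosen after its values were seen. AOL_s00193g183, which joins a ricin-type domain to a peptidase inhibitor domain, was listed at 0 in 2 libraries at 0 h and had 0.87 TPM in the third, and had 6.35, 4.0 and 7.23 TPM at 48 h (2.45 ± 0.46, adjusted p = 0.00523). It fell by 2.03 in the wild type, from 16.7 to 3.68 TPM, so the strains differed by 4.48 (adjusted p = 0.011).

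The list of hydrophobins and spore proteins was kept as markers of conidia, the other cells that a plate of hyphae can hold. Of its 15 genes 13 were tested, 4 rose and 1 fell, none of them in the 6-library fit or without the second 0 h library. Its summed level was 368 to 1092 TPM at 0 h against 657 to 2402 TPM at 48 h, the highest value being that of the first 48 h library, and a hydrophobin of the list is at 0 in all 6 libraries. The share of conidia in these libraries, and its part in the changes, was not tested.

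Signalling genes of the MAP kinase cascades, which relay surface, stress and mating signals in fungi, had 10 of 76 higher (13.2%) and 8 lower (10.5%). These shares lay near those of all genes (13.0% and 8.52%). The median was 0.31, and scaling by median ratios gave 6 higher and 8 lower. In the 6-library fit the balance was 1 higher and 6 lower, and without the second 0 h library 2 and 4. PBS2, the MAP kinase kinase of the osmotic stress pathway, fell from 119, 123 and 181 TPM to 19.1, 52.0 and 46.3 TPM (AOL_s00097g443, -1.92 ± 0.39, adjusted p = 0.00695). The wild type had 17.1 and 14.9 TPM at the 2 times, and the difference between the strains did not pass (adjusted p = 0.0806). STE7, the kinase kinase of the pheromone and filamentation pathway, fell from 579, 515 and 289 TPM to 131, 135 and 183 TPM (AOL_s00075g106, -1.57 ± 0.29, adjusted p = 0.00485). The MAP kinase of the cell wall integrity pathway, spm1 in fission yeast, had 103, 134 and 92.3 TPM and then 67.1, 58.1 and 74.7 TPM (AOL_s00173g235, -0.71, adjusted p = 0.0496), a call lost with the 6 libraries alone (adjusted p = 0.188) and in 11 of the 12 fits that left out a library. These 3 kinases were picked after their values were seen. AOL_s00075g5, annotated both as the wall protein ecm33 and as a WSC-type wall sensor, rose from 13.7, 6.48 and 11.95 TPM to 36.5, 40.2 and 59.6 TPM (2.01 ± 0.39, adjusted p = 0.00606). The strongest fall, AOL_s00007g233 (-2.43), is an aspartic protease annotated as BAR1, which in yeast degrades a mating pheromone.

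G protein and Ras genes had 5 of 28 higher and 2 lower (3 and 1 without the second 0 h library). A regulator of G protein signalling rose from 6.71, 3.03 and 5.45 TPM to 16.6, 80.9 and 36.4 TPM (AOL_s00078g593, 2.69 ± 0.48, adjusted p = 0.00413), and a Ras-type protein fell from 9.93 ± 2.42 to 2.59 ± 0.25 TPM (AOL_s00078g202, -1.58). Another regulator of G protein signalling, AOL_s00043g257, had 16.8, 17.5 and 13.3 TPM at 0 h against 22.2, 98.2 and 57.2 TPM at 48 h (1.61, adjusted p = 0.0205, and 0.101 with the 6 libraries alone). It fell in the wild type from 67.5 to 9.17 TPM, a difference of 4.35 between the strains (adjusted p = 0.011).

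The cell wall itself changed in few genes. A secreted endo-1,3-beta-glucosidase rose from 16.1, 9.88 and 13.9 TPM to 56.4, 124 and 83.0 TPM (AOL_s00170g61, 2.59 ± 0.32, adjusted p = 0.000697), and a glucanosyltransferase of the gas2 type, which lengthens wall glucan, fell from 56.5 ± 18.1 to 14.6 ± 1.63 TPM (AOL_s00043g350, -1.83). They were 2 of the 3 genes called among 24 for beta-glucan, where 2 rose and 1 fell, and both passed in the 6-library fit. Of 17 chitin genes 1 rose and 3 fell, among them endochitinase B, from 106, 142 and 122 TPM to 43.0, 71.6 and 69.7 TPM (AOL_s00140g14, -1.02, adjusted p = 0.036, and 0.104 with the 6 libraries alone), a call also lost in 6 of the 12 fits that left out a library. Mannan and GPI anchor synthesis had 5 of 53 higher and 2 lower. No chitin, mannan or GPI anchor gene was called without the second 0 h library. Cytoskeleton and septin genes had 12 of 135 in each direction (8.89%), and autophagy 12 of 112 higher (10.7%) and 9 lower (8.04%), near or below the shares of all genes. Endocytosis and SNARE transport had 21 of 102 higher (20.6%) and 7 lower (6.86%). None of the endocytosis rises passed in the 6-library fit. Without the second 0 h library 6 endocytosis rises and 0 falls were called, with 4 and 2 for the cytoskeleton and 5 and 3 for autophagy.

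Among genes of growth, ribosome biogenesis and the spliceosome had more rises than the share of all genes, and those rises rest on the 12-library fit. Of 67 ribosome biogenesis genes 21 rose (31.3%) and 0 fell, with a median of 0.66. The rRNA-processing gene FCF1 had 46.5, 43.6 and 47.4 TPM at 0 h against 255, 91.5 and 113 TPM at 48 h (AOL_s00054g844, 1.57 ± 0.33, adjusted p = 0.00871, and 0.0614 with the 6 libraries alone). Of 95 spliceosome genes 22 rose (23.2%) and 2 fell, with a median of 0.58. With the 6 libraries alone 0 rises of either list were called, and without the second 0 h library 1 and 2 were. Of 75 cytosolic ribosomal proteins none was called, with a median of 0.36. Their summed level was 67480, 49526 and 39285 TPM at 0 h against 90751, 44911 and 57283 TPM at 48 h, highest in the first library of each time. In the wild type 70 of the 75 rose, with a median of 1.19; for 0 of the 75 did the difference between the strains pass. For ribosome biogenesis the difference passed in 13 of 67 genes, all with the smaller rise in the labelled strain. Mitochondrial ribosomal proteins had 4 of 58 higher and 0 lower (0 and 0 without the second 0 h library). tRNA synthetases leaned down, with 8 of 41 lower (19.5%) and 1 higher, such as the lysine enzyme (AOL_s00210g332, -1.32, adjusted p = 0.0123), and 0 of them passed in the 6-library fit or without the second 0 h library.

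The remaining housekeeping lists lay near or below the share of all genes. DNA replication had 1 of 40 higher and 1 lower, the cell cycle 6 of 82 and 2, DNA repair 7 of 82 and 2, the proteasome 3 of 36 and 0, protein processing in the endoplasmic reticulum 10 of 83 and 1, and heat shock and chaperones 15, or 12% of those tested, and 9. Without the second 0 h library the rises and falls were 1 and 0, 1 and 0, 0 and 1, 0 and 0, 5 and 0, and 4 and 3 in the same order. Larger rises were seen in the neighbours AOL_s00076g142 and AOL_s00076g141, which the DNA repair list does not hold. They are annotated as RAD7 and RAD16, which in yeast act together in repair of damage by ultraviolet light. RAD7 had 15.2, 3.57 and 5.62 TPM at 0 h against 87.5, 90.4 and 65.3 TPM at 48 h (3.37 ± 0.43, adjusted p = 0.000988). RAD16 had 5.34, 3.30 and 2.57 TPM and then 62.2, 37.5 and 29.2 TPM (3.19 ± 0.33, adjusted p = 0.00033). Both passed in the 6-library fit, and in the wild type they rose by 3.09 and 2.46.

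**Figure D4:**
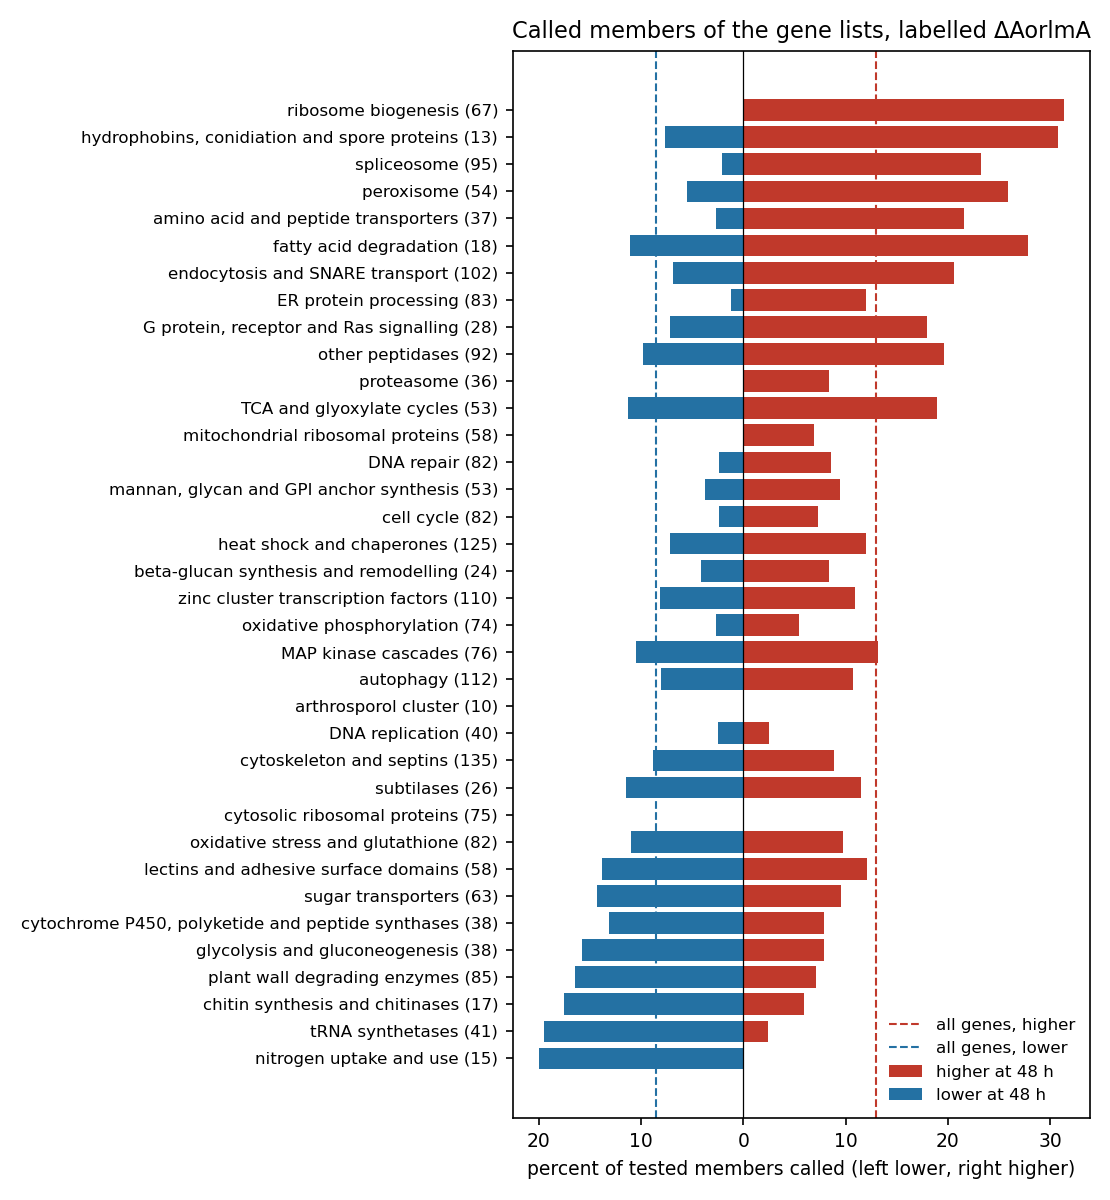
Percent of the tested members of each gene list that were called higher (red, to the right) or lower (blue, to the left) at 48 h in the libraries labelled ΔAorlmA, for lists with at least 10 tested members (number in brackets). Dashed lines give the shares of all genes, 13.0% higher and 8.52% lower. Ribosome biogenesis, at 31.3%, reaches farthest to the right, and cytosolic ribosomal proteins and the arthrosporol cluster have no called member.

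Other nutrients gave further changes. Of 63 sugar transporters 6 rose (9.52%) and 9 fell (14.3%), and without the second 0 h library 2 rose and 6 fell. A high-affinity glucose transporter fell from 22.9, 42.2 and 67.9 TPM to 6.20, 6.09 and 7.05 TPM (AOL_s00043g252, -2.48 ± 0.39, adjusted p = 0.0027), and a permease of the lactose type rose from 23.8 ± 19.6 to 95.0 ± 31.3 TPM (AOL_s00081g21, 2.18). A phosphate transporter, chosen after its values were seen, rose from 128, 17.8 and 12.5 TPM to 458, 261 and 177 TPM (AOL_s00188g343, 3.12, adjusted p = 0.00911, and 0.0502 with the 6 libraries alone). A secreted glycerophosphodiester phosphodiesterase, which frees phosphate compounds from lipid remains, fell from 699.6, 605 and 282 TPM to 21.5, 7.15 and 20.2 TPM (AOL_s00110g143, -4.97 ± 0.53, adjusted p = 0.000389). VTC4, which makes the phosphate store polyphosphate, fell from 128 ± 38.1 to 33.7 ± 2.21 TPM (AOL_s00080g366, -1.86). Nitrogen use had 3 of 15 lower and 0 higher (0 and 1 without the second 0 h library); the abundant carbonic anhydrase fell from 6089, 7470 and 6339 TPM to 2786, 2390 and 3284 TPM (AOL_s00054g684, -1.24, adjusted p = 0.0183, and 0.0933 with the 6 libraries alone). Oxidative stress genes had 8 of 82 higher, such as the peroxiredoxin TSA1 (AOL_s00079g96, 1.12), and 9 lower, such as cytochrome c peroxidase (AOL_s00076g248, -1.21). Neither passed in the 6-library fit (adjusted p = 0.0726 and 0.0566, limma), and without the second 0 h library the list had 4 in each direction.

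Of the other large changes among annotated genes, most belong to no list. An F-box protein had the largest rise, from 4.32, 1.57 and 0.44 TPM to 206, 82.3 and 52.4 TPM (AOL_s00169g118, 5.17 ± 0.51, adjusted p = 0.00033), and rose as much in the wild type (5.08). A UDP-glucosyltransferase rose from 30.3, 2.23 and 8.11 TPM to 38.1, 477 and 253 TPM (AOL_s00173g52, 4.11, adjusted p = 0.0115), with the first libraries of the 2 times close together, and did not pass without the second 0 h library. An acetyltransferase-domain gene rose from 1.49, 0.11 and 0.55 TPM to 23.7, 10.4 and 20.2 TPM (AOL_s00078g525, 3.48), and a gene with a galactolipid synthase domain from 11.0, 0.71 and 0.61 TPM to 31.8, 23.8 and 34.9 TPM (AOL_s00081g143, 3.26). Both had wild-type group means under 1 TPM and passed the filter on low values only through the 48 h libraries where they are high. A CorA-type magnesium transporter fell from 179, 149 and 208 TPM to 6.35, 17.6 and 35.9 TPM (AOL_s00083g95, -3.37), and an ankyrin-repeat gene from 1713, 1178 and 402 TPM to 102, 98.1 and 110.4 TPM (AOL_s00097g295, -3.16). Falls of -3.62 to -3.18 were also seen for AOL_s00078g287, the zinc cluster factor AOL_s00007g281, the ABC transporter AOL_s00054g967 and the RTM1-type gene AOL_s00097g323. AOL_s00097g323 passed the filter on low values only through its 0 h libraries, where it is high. All the genes of this paragraph passed in the 6-library fit, which used the same filter.

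Among genes without annotation, 489 of 2330 were called (21.0%), close to the 1520 of 7025 annotated genes (21.6%). AOL_s00007g127 rose from 2.92 TPM in the first 0 h library and 0 in the others to 66.2, 15.5 and 81.1 TPM (log2 change 4.83). AOL_s00079g308 rose from 13.2, 15.8 and 16.1 TPM to 517, 123 and 375 TPM (4.18), and AOL_s00054g457 from 5.75, 0.90 and 1.44 TPM to 77.8, 26.1 and 83.1 TPM (4.16). AOL_s00076g259 was listed at 0 in all 3 libraries at 0 h and had 7.10, 8.90 and 10.3 TPM at 48 h. It was also at 0 in every wild-type library, so it passed the filter on low values only through the libraries where it is high. AOL_s00007g127 and AOL_s00054g457 also passed that filter only through their 48 h libraries. The p-values of AOL_s00076g259, AOL_s00007g127 and AOL_s00054g457 are therefore not given. All 4 genes had group means under 1 TPM in the wild type at both times. AOL_s00079g308 passed the filter at 0 h too, and the strains differed in it (4.56, adjusted p = 0.011, limma). The largest falls were AOL_s00004g51 (-4.47), AOL_s00080g1 (-4.20) and AOL_s00083g358 (-4.07), the last from 1584, 216 and 230.0 TPM to 11.4, 29.6 and 43.2 TPM.

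Of 110 zinc cluster transcription factors, the largest family of fungal regulators, 12 rose (10.9%) and 9 fell (8.18%), near the shares of all genes. In the 6-library fit 1 rose and 5 fell, and without the second 0 h library 6 and 6 did. PRO1, needed for sexual development in other filamentous fungi, rose from 45.2, 27.0 and 18.9 TPM to 103, 93.3 and 85.4 TPM (AOL_s00004g189, 1.68 ± 0.32, adjusted p = 0.00523). None of the 6 genes for velvet proteins, laeA and fluG, regulators of development and secondary metabolism, was called, with a median of -0.55. Cytochromes P450 and polyketide and peptide synthases had 3 of 38 higher and 5 lower (3 and 2 without the second 0 h library); AOL_s00043g381, a P450, rose from 21.2, 14.1 and 20.5 TPM to 146, 117 and 104 TPM (2.66 ± 0.36, adjusted p = 0.00131), and AOL_s00109g132, of the alkane-using CYP52 type, fell from 41.2 ± 5.48 to 10.1 ± 1.12 TPM (-1.92).

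The arthrosporol cluster, 10 neighbouring genes around a 6-methylsalicylic acid synthase whose products are known to affect trap formation, had no called member, and its level varied more between libraries than between times. Its summed level was 1654, 2824 and 6682 TPM at 0 h against 939, 6850 and 5663 TPM at 48 h. The first library was the lowest at each time. The synthase, AOL_s00215g283, had 34.6, 86.6 and 266 TPM at 0 h against 22.3, 347 and 186 TPM at 48 h (log2 change 0.29 ± 0.88, adjusted p = 0.838). The prenyltransferase, AOL_s00215g276, had 243, 400.3 and 1091 TPM and then 135, 1077 and 1005 TPM (0.15 ± 0.83). The other 8 genes had changes of -0.41 to 0.87. In the wild type 6 of the 10 rose, the prenyltransferase from 5.4 to 90.6 TPM; for 0 of the 10 did the difference between the strains pass.

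The wild type changed in 4338 genes over the same time, 1650 higher (17.6%) and 2688 lower (28.7%). Of the 2009 genes of the labelled strain, 1303 changed in the same direction in the wild type, which is 64.9% of the calls in the labelled strain and 30% of those in the wild type. A further 18 changed in the opposite direction and 688 were not called in the wild type. The size of the response differed between the strains in 414 of 9355 genes (4.43%), 302 with a more positive change in the labelled strain (3.23%) and 112 with a more negative one (1.20%). Of these, 48 were called in the labelled strain and not in the wild type, 17 rose in the labelled strain and fell in the wild type, and 1 did the reverse. The number was not stable: it ranged from 17 without the third wild-type 48 h library to 876 without the first 48 h library of the labelled strain, and was 1349 without the first library of each time.

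**Figure D5:**
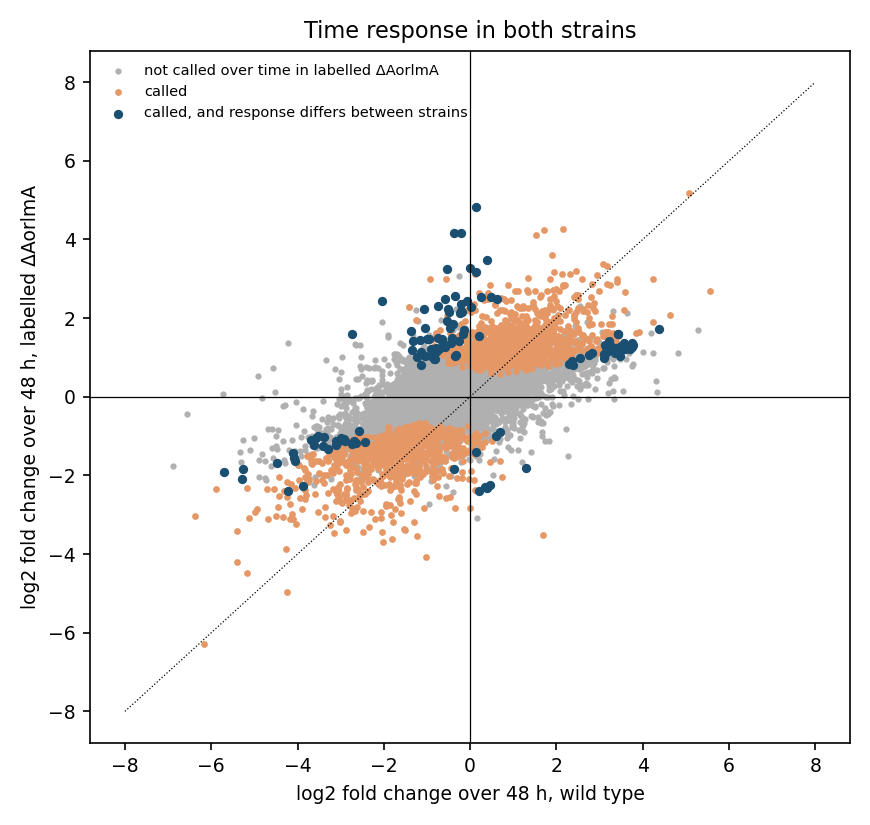
Log2 fold change over 48 h in the libraries labelled ΔAorlmA (y axis) against that in the wild type (x axis) for each gene tested. Orange points were called over time in the labelled strain, blue points also differed between the strains, and the dotted line marks equal change. The blue points at a wild-type change near 0 and a change above 2 in the labelled strain include AOL_s00079g308.

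In the authors' deposited table of calls, 2518 genes are marked for this comparison, 1021 up and 1497 down. Of those in the authors' deposited table, 820 were called higher and 771 lower in the 12-library fit and 0 in the opposite direction, which is 63.2% of the authors' deposited table and 79.2% of the limma calls. Of the 438 calls of the 6-library fit, 98.6% are in the authors' deposited table.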

How the data were processed

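The authors deposited TPM per gene and library, and a second table with FPKM and annotation (Swiss-Prot, KEGG orthology, Pfam); FPKM was TPM times a constant in each library. The table the authors deposited under the name of raw counts holds correlations, so no read counts per gene were used. Clean read counts and the percent of bases at quality 30 come from the authors' deposited sequencing statistics. The sources used here give no aligner, quantifier or build. Left out were 8 columns of means. Every one of 11479 gene IDs was a locus tag in the RefSeq table, and 7738 carried an annotation.

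Low FPKM values fell on steps of whole fragments (100% of 188 to 219 values per library labelled ΔAorlmA within 0.15 of a whole number), an estimated 12.9 to 15.7 M assigned fragments. At that depth 1 TPM of a gene of 1 kb is about 13 to 15 fragments.

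The genes tested reached 1 TPM in 3 or more of the 12 libraries. They were tested with limma 3.58.1 in R 4.3.3 (variance trend, 8 residual degrees of freedom) on log2(TPM + 1), with a mean per group and no block; fold changes on this scale understate those of low genes. Each call is a two-sided p under 0.05 after adjustment by Benjamini and Hochberg's method across every gene tested. Tested on simulated data with known changes, the fit recovered most of the larger and few of the smaller ones. The simulation gave a gene the same spread in every library. It therefore does not cover the wider spread of the libraries labelled ΔAorlmA and cannot vouch for the calls in them. Members, gene lists and tests were chosen with earlier results of these data known. Of 39 lists built from annotation words, 38 found members; such words let in genes of other function. Named were the 10 largest annotated rises and falls with at least 5 TPM and groups apart, and the best call of each list in each direction. Also named were MADS-box, SNF1 and arthrosporol genes, and the 10 strongest strain differences among called genes. The 3 largest rises and falls without annotation and the 5 most abundant annotated genes of each time were named too. A further 25 genes were chosen after their values were seen.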

Additional observations from a re-analysis of the deposited data

Results flagged for a closer look

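The change over 48 h differed between the libraries labelled ΔAorlmA and the wild type in 414 genes by the interaction term of the limma fit (adjusted p under 0.05). Over all genes tested, 302 had a more positive change in the labelled strain (3.23%) and 112 a more negative one (1.20%). Among the named genes that also changed over time in the labelled strain, 20 had a more positive change there and 1 a more negative one. Some of them were named for this difference or after their values were seen, so this count is no share of all genes. Each difference below is a log2 value, labelled strain minus wild type. What lies behind them was not tested.

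In 5 genes with little transcript in the wild type the difference was 4.70 (AOL_s00007g127), 4.56 (AOL_s00079g308), 4.36 (AOL_s00054g457), 3.27 (AOL_s00076g259) and 2.25 (AOL_s00193g63). All of these but AOL_s00079g308 passed the filter on low values only through the 48 h libraries of the labelled strain, where they are high. AOL_s00076g259 was at 0 in all other libraries. The difference was 3.80 for the galactolipid synthase-domain gene AOL_s00081g143, 3.09 for the acetyltransferase-domain gene AOL_s00078g525 and 3.05 for the trypsin-like AOL_s00078g418. Each of them also passed that filter only through those 48 h libraries. The genes of uptake and metabolism were the methionine permease AOL_s00007g98 (1.86), the oligopeptide transporters AOL_s00054g285 (2.29) and AOL_s00188g351 (2.49), acetyl-CoA synthetase AOL_s00081g301 (2.37), the hydroxyphenylpyruvate dioxygenase AOL_s00097g549 (2.73) and the aldolase AOL_s00004g332 (1.94), the last of which fell in both strains.

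Some genes rose in the labelled strain and fell in the wild type. They were the lectin and peptidase inhibitor gene AOL_s00193g183 (4.48), the regulator of G protein signalling AOL_s00043g257 (4.35), the RING finger gene AOL_s00078g545 (2.29) and the CoA ligase AOL_s00054g395 (1.95). The CoA ligase was low, with means of 0.43 and 1.52 TPM at 0 h and 48 h in the labelled strain. In the wild type its means were 3.44 and 0.987 TPM. Its call over time was lost in 7 of the 12 fits that left out a library. The SET-domain gene AOL_s00081g77 (3.43) fell in both, from 58.2 to 15.8 TPM in the labelled strain and from 398 to 8.87 TPM in the wild type. CDC4, an F-box protein of the cell cycle, differed by 1.39 (AOL_s00043g560). With the 6 libraries alone the changes over time of AOL_s00078g545, AOL_s00054g395 and AOL_s00043g560 did not pass (adjusted p = 0.0947, 0.103 and 0.1, limma). The tyrosinase AOL_s00083g37 differed by -3.09, falling in the labelled strain and rising in the wild type.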

How the results depend on the processing

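The number of genes that changed in the libraries labelled ΔAorlmA was 2009, of which 1692 at least 2-fold. It was 438 (438 at least 2-fold) with the 6 libraries alone, 603 (601) with library weights by strain, and 3420 (2763) without the first library of each time. Leaving out a library gave 720 to 3442 (699 to 2747); leaving out the second 0 h library gave the lowest and the first 0 h library the highest. Another pseudocount, other filters on low values, other scalings and robust moderation gave 1873 to 2079. The 414 differences between the strains became 260 with log2(TPM + 0.1), 17 to 876 with a library left out and 1349 without the first library of each time. The cause was not tested.

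Replicate numbers were not used to pair the libraries, and whether they pair them cannot be told from these values. The deviations of same-numbered 0 h and 48 h libraries correlated at 0.173, -0.037 and 0.188. On the second component of the 6 libraries alone, the first libraries lay at 49.7 (0 h) and 33.9 (48 h), and the others between -41.3 and 0.3. With the replicate number as a block there were 1766 calls over 12 libraries and 297 (297 at least 2-fold) over the 6 alone, against 438 without the block. Not every library correlated best with its own number.

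No gene chosen for naming and called turned its direction under any alternative; of 117 such genes 78 kept their call with the 6 libraries alone. Genes not called turned direction as follows, on the log2 scale, with a library left out: AOL_s00215g274 -1.04 to 0.62, AOL_s00215g275 -0.93 to 0.53, AOL_s00215g276 -0.36 to 1.13, AOL_s00215g277 -0.41 to 0.91, AOL_s00215g278 -0.62 to 0.91, AOL_s00215g279 -0.32 to 1.03, AOL_s00215g280 -0.17 to 1.32, AOL_s00215g282 -0.59 to 1.27, AOL_s00215g283 -0.51 to 1.44 and AOL_s00078g125 -0.50 to 0.09. Scaling by median ratios gave -0.02 for AOL_s00215g276, -0.06 for AOL_s00215g277 and -0.02 for AOL_s00215g282. Without the first library of each time AOL_s00215g275 had 0.45 and AOL_s00215g278 had 0.55.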

Other observations

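Several of the most abundant transcripts of annotated genes were not called. A cerato-platanin protein, of a family of small secreted fungal proteins, had 10599, 10924 and 16390 TPM, then 6401, 10741 and 6479 TPM, with groups that overlapped (AOL_s00083g444, log2 change -0.70, adjusted p = 0.41, limma). The plasma membrane proteolipid PMP3 had 3068, 2847 and 6160 TPM, then 3236, 13861 and 10228 TPM (AOL_s00173g93, 1.03, adjusted p = 0.142), and a secreted protein had 4378, 2248 and 3555 TPM, then 4575, 14568 and 10197 TPM (AOL_s00083g104, 1.43, adjusted p = 0.0947). In both, the first 48 h library lay near the 0 h libraries and the other 48 h libraries above them; the groups overlapped for PMP3 and not for the secreted protein. The bridging factor MBF1, a transcriptional coactivator in yeast, had 6536, 7424 and 6568 TPM, then 2554, 2239 and 4446 TPM (AOL_s00075g148, -1.22, adjusted p = 0.155), with groups that did not overlap.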
